A study of Homo sapiens with 12 samples.

Results

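The 10 genes described here encode enzymes of gluconeogenesis and of glycogen synthesis and breakdown. They were taken by name from the deposited expression table, which listed 22963 names, and all 10 were present. PC encodes pyruvate carboxylase, PCK1 and PCK2 the cytosolic and mitochondrial phosphoenolpyruvate carboxykinases, PGM1 phosphoglucomutase, and UGP2 the enzyme that makes UDP-glucose. GYS1 and GYS2 encode the muscle-type and liver-type glycogen synthases, GBE1 the branching enzyme, and PYGL and PYGB the liver-type and brain-type glycogen phosphorylases. Expression was measured by RNA sequencing in 12 libraries in 4 groups of 3, all from human hepatocellular carcinoma cell lines without drug treatment. PLC/PRF5 cells carried the empty vector (vector group) or overexpressed EGR1 (EGR1 group), a zinc finger transcription factor, from a lentiviral plasmid with a CMV promoter in a stable line. MHCC97H cells were parental or labelled EGR1 knockout, made with CRISPR/Cas9. The study describes single-cell clones of the knockout, and which clone gave the 3 libraries was not given in the sources used here. The labels call the replicates biological, and the sources do not say whether separate cultures were used, so the p-values measure the spread between these libraries.

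Gluconeogenesis makes glucose from lactate, amino acids and glycerol and is a defining task of the liver. Pyruvate carboxylase makes oxaloacetate from pyruvate, phosphoenolpyruvate carboxykinase turns it into phosphoenolpyruvate, and glucose-6-phosphatase releases free glucose at the end of the path. Glycogen is the stored form of glucose. Phosphoglucomutase interconverts glucose-6-phosphate and glucose-1-phosphate, UGP2 activates the latter to UDP-glucose, glycogen synthase lengthens the chains, the branching enzyme adds branch points, and phosphorylase removes glucose units again. Adult hepatocytes are known for PCK1, GYS2 and PYGL, whereas GYS1 and PYGB are used in many other tissues.

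Values are FPKM, fragment counts divided by transcript length and by the size of the library, so levels of different genes can be compared per length. The number of reads behind them is unknown. EGR1 itself was at 1.81 ± 0.328 FPKM (SD, n = 3) in the vector group and 52.9 ± 3.10 in the EGR1 group. In MHCC97H it was at 21.5 ± 1.48 FPKM in parental cells and 39.5 ± 9.43 in the libraries labelled knockout, higher by 0.83 on the log2 scale with a limma adjusted p = 0.00126. An edited reading frame does not show in FPKM. EGR1 mRNA was thus not lower under the knockout label, and each direction given for these libraries is that of the libraries labelled knockout. The study reports that its knockout clones were checked by western blot and by sequencing of DNA. Fold changes also moved with the GC content of the transcripts across all genes. Spearman's rho between transcript GC content and log2 fold change was -0.448 over 10829 genes for overexpression and 0.766 over 10806 genes for the libraries labelled knockout, as a description across genes that share libraries. Values with a GC and length trend removed, called corrected values, are given where they change a call. The part of GC content in the results was not tested apart from this correction. Of 13 hepatocyte markers, 12 had a mean of at least 1 FPKM in each PLC/PRF5 group, against 8 in parental MHCC97H and 9 in the libraries labelled knockout. Summed hepatocyte marker levels were 4099 to 4351 FPKM in the vector group, 4864 to 6138 in the EGR1 group, 1500 to 1880 in the parental group and 2291 to 2723 in the labelled knockout group. In MHCC97H these sums came mostly from the keratin genes KRT8 and KRT18. KRT8 was at 1102 ± 141 FPKM in parental cells and 1775 ± 150 in the libraries labelled knockout. KRT18 was at 517.1 ± 51.8 and 634.6 ± 68.3 FPKM. Of 12 markers of immune, endothelial, fibroblast or biliary cells, 3, 3, 4 and 5 had a mean of at least 1 FPKM in the vector, EGR1, parental and labelled knockout groups. Their sums were 44.6 to 45.6, 34.1 to 44.7, 153.3 to 183.4 and 290.9 to 335.7 FPKM, mostly from the biliary keratin gene KRT19 in MHCC97H (130.7 ± 13.8 FPKM in parental cells, 246.6 ± 19.5 in the libraries labelled knockout) and CD68 in PLC/PRF5. The part of these markers in the results was not tested. The immune gene PTPRC was listed at 0 in every PLC/PRF5 library and did not exceed 0.0587 FPKM in MHCC97H.

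In PLC/PRF5 cells, EGR1 overexpression came with more PC and less PGM1 and GYS1. Log2 fold changes were taken on log2(FPKM + 1) and tested with limma, with p-values adjusted over all genes tested and a threshold of 0.05. Of the 8 members that passed the filter of a mean of 1 FPKM, 1 rose, PC, and 2 fell, PGM1 and GYS1. Of 11671 genes tested, 19.2% rose and 10.4% fell. The median log2 fold change of the 8 members was -0.14, and that of all genes tested was 0.09. With the correction the member calls were the same 3 genes, where 4046 of 10829 genes were called in either direction. In bulk RNA, fewer cells with a transcript and less of it per cell cannot be told apart. The other 5 members, PCK2, UGP2, GBE1, PYGL and PYGB, did not pass, with log2 fold changes between -0.20 and 0.11.

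In MHCC97H cells, the libraries labelled knockout had more PYGB, PC, PGM1, GYS1 and PYGL and less UGP2 than parental cells. Of the 8 members tested, 5 rose and 1 fell, in a comparison where 34.8% of 11577 genes rose and 31.5% fell. The median log2 fold change was 0.35 for the members and 0.02 for all genes tested. With the correction, 3 members rose, PGM1, PYGB and GBE1, and 1 fell, PCK2, while PC, GYS1, PYGL and UGP2 no longer passed. Over all genes, 4959 of 10806 were called in either direction with the correction. PGM1 and PYGB were the members that rose with and without the correction. The transcripts of PC, GYS1, PYGB and PCK2 had a GC content of 58.5% to 61.6%, against a median of 48.7% over the genes tested, and that of UGP2 was 41.0%.

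**Figure D1:**
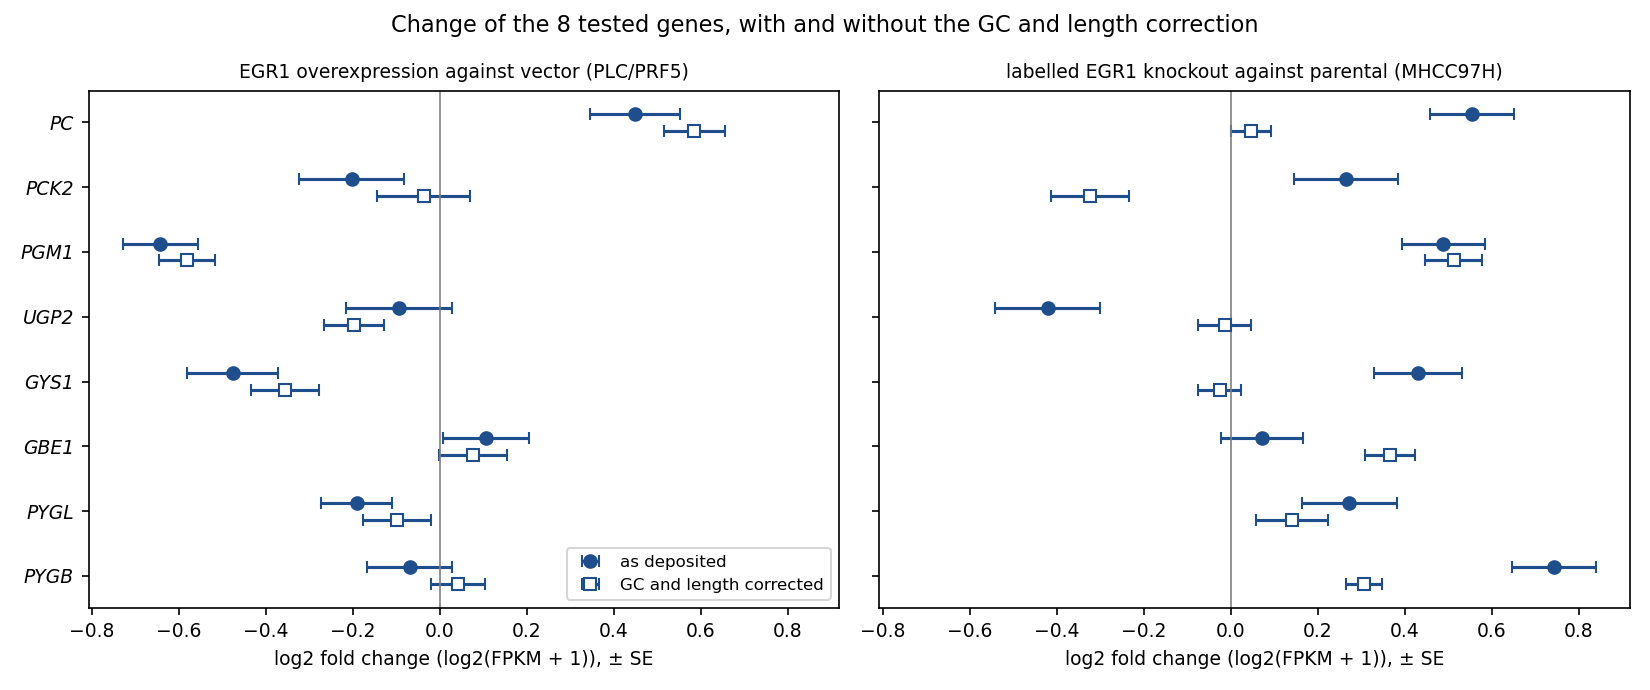
Log2 fold change on log2(FPKM + 1) (x axis) of the 8 tested genes (y axis) for EGR1 overexpression against vector in PLC/PRF5 and for labelled EGR1 knockout against parental in MHCC97H, 3 libraries per group. Points with bars are the limma estimate ± SE, filled for values as deposited and open after the GC and length correction. PGM1 lies at -0.64 on the left and 0.49 on the right and stays near these values after the correction, whereas PC and GYS1 move to 0.05 and -0.03 on the right.

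**Figure D2:**
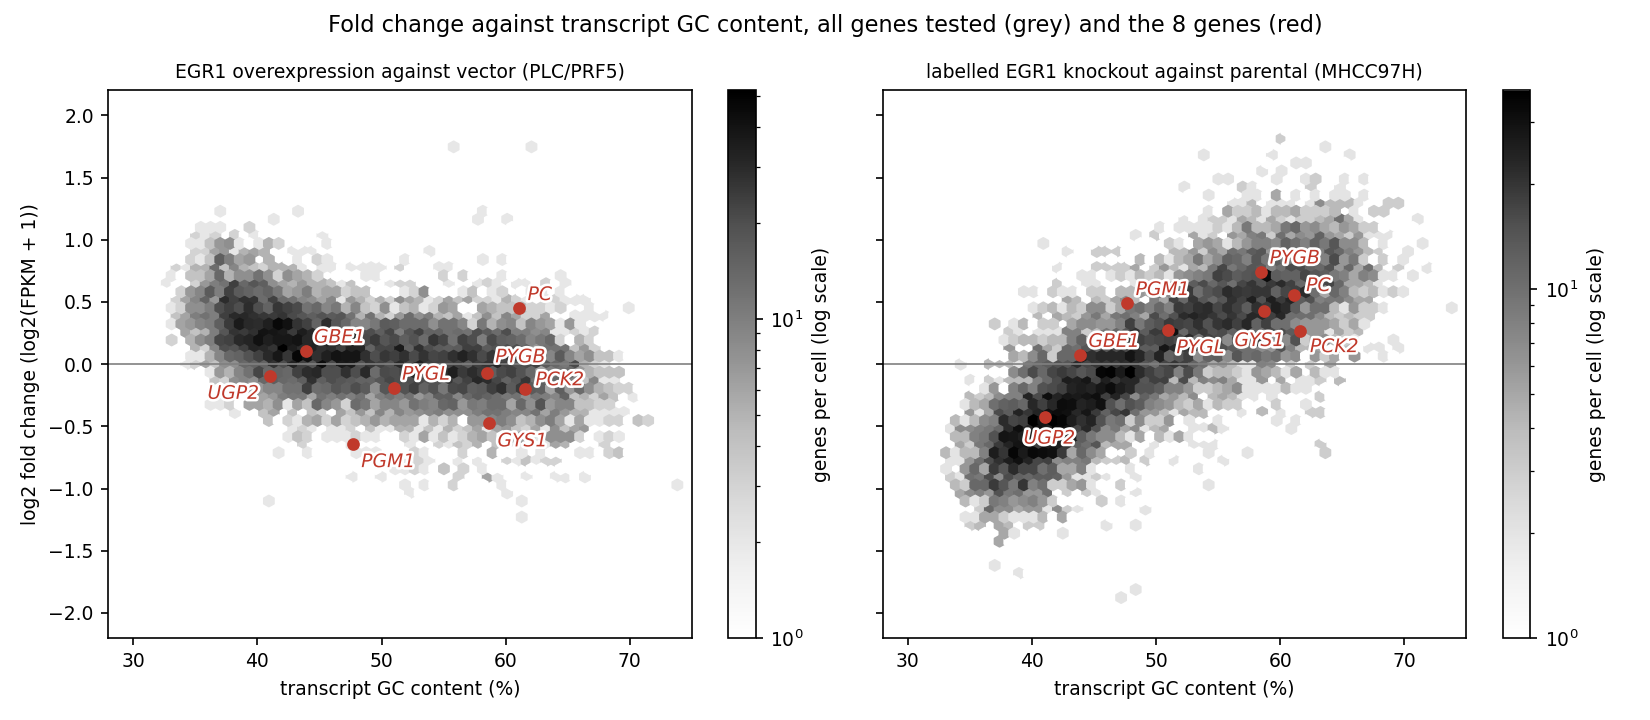
Log2 fold change on log2(FPKM + 1) (y axis) against transcript GC content in percent (x axis) for the genes tested, as grey cells shaded by the number of genes on a log scale, with the 8 tested members in red. The cloud falls with GC content for EGR1 overexpression (rho -0.448) and rises with it for labelled EGR1 knockout (rho 0.766), and 11 and 30 genes lie outside the axes.

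The overexpression and labelled knockout effects were compared for each of the 8 tested members. The difference of the effects, overexpression minus labelled knockout, was tested as 1 contrast over the 12 libraries. It was lower for 5 of the 8 members, PGM1, GYS1, PYGB, PCK2 and PYGL, and higher for 0, where 30.4% of 12090 genes were lower and 33.4% were higher. PC, UGP2 and GBE1 did not pass. The cell line and the kind of manipulation cannot be told apart in this contrast. Across genes, Spearman's rho between transcript GC content and this difference was -0.732 over 11248 genes. Corrected values passed for PGM1, GYS1, PYGB and GBE1 on the lower side and for PC on the higher side. The share of all genes that passed in this corrected contrast is not given here. These corrected calls therefore cannot be set against all genes. PGM1 had the difference of greatest size, -1.13 on the log2 scale, with an adjusted p = 1.19e-05, and -1.10 after correction.

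Members were taken whose level changed, in the values as deposited, with overexpression or in the libraries labelled knockout. The regions before their transcription starts are shown, since EGR1 is a DNA-binding factor. They are RefSeq sequence of GRCh38.p14, read on the gene's strand, limited to bases before the RefSeq start that no GENCODE 29 exon covers. RefSeq starts matched 8 of the 10 members, and the first start of each was used. PYGL, which also changed, is not shown because 0 bases before its start lay outside exons. The regions are chr11:66958384-66958633 on the minus strand for PC, chr1:63593161-63593275 on the plus strand for PGM1, chr2:63840719-63840939 on the plus strand for UGP2, chr19:48993311-48993447 on the minus strand for GYS1, and chr20:25247835-25248068 on the plus strand for PYGB. Capitals mark GC boxes, GGGCGG on either strand. PCK2 passed in neither of these comparisons in the fits given above without the correction. A stretch of it is added because it holds the only match to either EGR1 motif in the promoter windows of the 8 matched members. The stretch was thus not chosen by a change in level. It lies at chr14:24094249-24094277 and is shown on the plus strand, and the capitals mark GCGGGGGCG on the minus strand, which overlaps a GC box. The match ends 43 bases before the RefSeq start at 24094311, but PCK2 starts earlier in GENCODE 29, at 24094053, and all 29 bases lie within its exons there, so this stretch is an exception to the limit on exons.
PC: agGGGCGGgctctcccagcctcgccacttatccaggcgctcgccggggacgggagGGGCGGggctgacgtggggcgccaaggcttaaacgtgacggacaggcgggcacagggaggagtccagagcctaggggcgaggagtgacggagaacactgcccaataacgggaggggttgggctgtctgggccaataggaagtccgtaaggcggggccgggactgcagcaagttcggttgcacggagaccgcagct
PGM1: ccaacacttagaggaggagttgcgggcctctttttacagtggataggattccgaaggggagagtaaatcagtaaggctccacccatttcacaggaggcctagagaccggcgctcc
UGP2: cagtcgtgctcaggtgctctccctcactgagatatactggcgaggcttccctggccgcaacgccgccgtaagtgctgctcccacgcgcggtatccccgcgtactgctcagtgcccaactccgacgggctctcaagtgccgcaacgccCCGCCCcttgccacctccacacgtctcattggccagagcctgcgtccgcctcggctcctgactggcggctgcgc
GYS1: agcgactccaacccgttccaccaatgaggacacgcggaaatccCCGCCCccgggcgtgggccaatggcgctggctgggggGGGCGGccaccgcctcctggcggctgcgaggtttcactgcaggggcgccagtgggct
PYGB: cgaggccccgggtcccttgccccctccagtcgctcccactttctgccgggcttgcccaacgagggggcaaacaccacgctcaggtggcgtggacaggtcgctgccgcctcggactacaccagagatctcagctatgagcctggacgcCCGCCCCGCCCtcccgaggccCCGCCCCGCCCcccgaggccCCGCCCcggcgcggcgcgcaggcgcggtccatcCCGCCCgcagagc
PCK2 site: taccaggttcCGCCCCCGCgcctgccccc
Over 300 bases around a start, the motif GCGGGGGCG on either strand was in 5.07% of 35116 promoters and GCGTGGGCG in 0.795%. The GC box was in 45.0% of all promoters. The whole 300-base windows at the first start held 6 GC boxes for PYGB, 4 for PCK2, 3 each for GYS1 and PYGL, 2 each for PC and GBE1, and 1 each for PGM1 and UGP2. The windows at further starts held 0 and 2 for PC, 1 and 0 for PGM1, and 2 for UGP2. A match is a run of letters and does not show binding.

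PC (chromosome 11, 66848233 to 66958376, minus strand, GRCh38) was at 20.5, 16.2 and 19.3 FPKM in the 3 vector libraries and at 24.3, 25.8 and 27.03 in the 3 EGR1 libraries. All EGR1 libraries lay above all vector libraries. The rise was 0.45 on the log2 scale (SE 0.10, adjusted p = 0.0128), and 0.58 after correction. Without EGR1 library 3 the adjusted p was 0.0520. In MHCC97H, PC was at 38.3, 42.9 and 46.0 FPKM in parental libraries and at 65.7, 58.2 and 64.0 in the libraries labelled knockout. These groups did not overlap either, and the log2 fold change was 0.55 (SE 0.10, adjusted p = 0.00104). The corrected log2 fold change was 0.05, with an adjusted p = 0.446. The 4 groups ranked labelled knockout, parental, EGR1 and vector without overlap, and parental MHCC97H exceeded vector PLC/PRF5 by 1.15 on the log2 scale (SE 0.11, adjusted p = 1.53e-05). PC shares 621 exonic bases, 10.5% of its own, with LRFN4 on the opposite strand, whose group means were at most 0.516 FPKM.

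PCK1 (chromosome 20, 57561080 to 57568112, plus strand), the rate-controlling carboxykinase of hepatic gluconeogenesis, was nearly silent. It was listed at 0.279, 0.243 and 0.107 FPKM in the vector libraries, at 0.0931, 0.0471 and 0.160 in the EGR1 libraries, and at 0 in all 6 MHCC97H libraries. The PLC/PRF5 groups overlapped, and PCK1 did not pass the filter for testing. PCK2 (chromosome 14, 24094053 to 24110598, plus strand) held 99.1% to 99.8% of the summed PCK1 and PCK2 level in PLC/PRF5 libraries and 100.0% in MHCC97H. It stood at 29.6, 29.04 and 30.4 FPKM with vector and at 21.0, 27.6 and 29.1 with EGR1. EGR1 library 1 was the low one, and the log2 fold change of -0.20 (SE 0.12) did not pass, with an adjusted p = 0.227. PCK2 was at 13.1, 11.6 and 15.1 FPKM in parental MHCC97H and at 17.1, 14.1 and 17.1 in the libraries labelled knockout, groups that overlapped. This log2 fold change was 0.26 (SE 0.12, adjusted p = 0.0775). After correction it was -0.32, with an adjusted p = 0.0193, so its direction depends on the correction. Parental MHCC97H lay below vector PLC/PRF5, with a log2 difference of -1.11 (SE 0.10, adjusted p = 1.15e-05).

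PGM1 (chromosome 1, 63593276 to 63660245, plus strand) was called in every comparison, with and without the correction. It was at 43.1, 38.3 and 44.0 FPKM with vector and at 25.95, 27.3 and 25.9 with EGR1. Every EGR1 library was below every vector library. The log2 fold change was -0.64 (SE 0.09, adjusted p = 0.00144) and stayed at -0.58 after correction, with an adjusted p = 0.000496. In MHCC97H the parental libraries were at 21.7, 23.3 and 23.3 FPKM and the libraries labelled knockout at 32.4, 29.3 and 35.5. The groups did not overlap, and the log2 fold change was 0.49 (SE 0.10, adjusted p = 0.00192), or 0.51 after correction. Leaving out any 1 library kept PGM1 past the threshold in these comparisons, with adjusted p-values up to 0.0108 for overexpression and 0.00917 for labelled knockout. Parental MHCC97H had less PGM1 than vector PLC/PRF5, with a log2 difference of -0.85 (SE 0.09, adjusted p = 1.98e-05). PGM1 shares 197 exonic bases, 4.68% of its own, with ITGB3BP on the opposite strand. ITGB3BP moved the other way, with group means of 11.2 FPKM for vector, 15.3 for EGR1, 14.7 for parental and 7.55 for labelled knockout. Whether strand was kept in the counting was not given in the sources used here.

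UGP2 (chromosome 2, 63840940 to 63891562, plus strand) stood at 41.0, 57.5 and 44.8 FPKM with vector and at 44.1, 44.2 and 44.4 with EGR1. Vector library 2 was the high one, and the EGR1 libraries lay within the vector range. The log2 fold change was -0.09 (SE 0.12, adjusted p = 0.577). In parental MHCC97H the libraries were at 67.7, 58.9 and 52.1 FPKM, and those labelled knockout at 43.5, 49.7 and 39.3. All of the latter were lower, and the log2 fold change was -0.42 (SE 0.12, adjusted p = 0.0123). The corrected value was -0.01, with an adjusted p = 0.863. Ordered by level, each UGP2 group overlapped its neighbour, and the cell lines did not differ past the threshold (log2 difference 0.32, SE 0.14, adjusted p = 0.0633).

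GYS2 (chromosome 12, 21536189 to 21604847, minus strand), the liver-type synthase, was listed at 0 in 11 of 12 libraries and at 0.0465 FPKM in vector library 2. GYS1 (chromosome 19, 48968125 to 48993310, minus strand) therefore held 99.8% to 100.0% of the summed synthase level. GYS1 was at 25.3, 20.9 and 26.2 FPKM with vector and at 17.4, 15.8 and 17.8 with EGR1. The EGR1 libraries were all lower, with a log2 fold change of -0.48 (SE 0.11, adjusted p = 0.0110) and -0.36 after correction. Without EGR1 library 2 the adjusted p was 0.0507. In MHCC97H, GYS1 was at 18.3, 20.2 and 22.2 FPKM in parental libraries and at 27.8, 25.6 and 29.5 in those labelled knockout. The latter were all higher, and the log2 fold change was 0.43 (SE 0.10, adjusted p = 0.00460). It was -0.03 after correction, with an adjusted p = 0.701. GYS1 of parental MHCC97H overlapped that of vector PLC/PRF5, with a log2 difference of -0.24 (SE 0.11, adjusted p = 0.0808).

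GBE1 (chromosome 3, 81489699 to 81762161, minus strand) varied least of the 8 tested members, by the range of its group means on the log2 scale. It was at 15.8, 19.8 and 19.1 FPKM with vector, 19.4, 20.0 and 19.5 with EGR1, 23.7, 24.1 and 20.7 in parental MHCC97H, and 25.2, 23.8 and 22.9 in the libraries labelled knockout. Groups of the same cell line overlapped. The log2 fold change was 0.11 (SE 0.10, adjusted p = 0.445) for overexpression and 0.07 (SE 0.09, adjusted p = 0.515) for labelled knockout. After correction the latter was 0.37, with an adjusted p = 0.00165. Parental MHCC97H exceeded vector PLC/PRF5 by 0.31 (SE 0.11, adjusted p = 0.0271), and by 0.03 after correction, with an adjusted p = 0.719.

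The phosphorylases differed between the cell lines, as did PC, PCK2, PGM1 and, before correction only, GBE1. Of all genes tested, 38.8% were higher and 40.9% were lower in parental MHCC97H than in vector PLC/PRF5. PYGL (chromosome 14, 50857891 to 50944736, minus strand) was at 21.0, 23.3 and 22.2 FPKM with vector and at 18.5, 19.6 and 19.7 with EGR1. The EGR1 libraries were all lower, and the log2 fold change of -0.19 (SE 0.08) did not pass, with an adjusted p = 0.109. In MHCC97H, PYGL was at 5.52, 5.97 and 6.87 FPKM in parental libraries and at 8.10, 7.34 and 7.30 in those labelled knockout. The groups did not overlap, and the log2 fold change of 0.27 (SE 0.11) just passed, with an adjusted p = 0.0491. Left out in turn, every library but parental library 3 took this call away, and the adjusted p was 0.199 after correction.

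PYGB (chromosome 20, 25248069 to 25298014, plus strand) had the highest level of the 10 genes in each group. Vector libraries were at 66.5, 55.4 and 63.9 FPKM and EGR1 libraries at 54.9, 59.4 and 62.4, and these overlapped (log2 fold change -0.07, SE 0.10, adjusted p = 0.613). Parental MHCC97H libraries were at 152.8, 166.7 and 182.3 FPKM and libraries labelled knockout at 287.6, 259.7 and 293.1. Each of the latter lay above all parental libraries. The log2 fold change was 0.74 (SE 0.10, adjusted p = 0.000239) and 0.31 after correction, with an adjusted p = 0.000832. Between the cell lines PYGB and PYGL went opposite ways. Parental MHCC97H exceeded vector PLC/PRF5 by 1.42 for PYGB (SE 0.10, adjusted p = 1.72e-06) and lay below it for PYGL, at -1.71 (SE 0.10, adjusted p = 6.06e-07).

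As a share of the summed phosphorylase level, PYGL made up 24.0%, 29.6% and 25.8% in the vector libraries and 25.2%, 24.8% and 24.0% in the EGR1 libraries. These overlapped, with a difference of -1.78 percentage points (exact permutation test, 2-sided, p = 0.5). Parental MHCC97H libraries stood at 3.49%, 3.46% and 3.63%, and those labelled knockout at 2.74%, 2.75% and 2.43%. The labelled knockout libraries were all lower, with a difference of -0.884 points (exact permutation p = 0.1, the smallest that 3 against 3 libraries allow). The difference was -0.299 points with the correction. Between the parental and vector groups the difference was -22.9 points, with the same exact permutation p = 0.1. PYGB exceeded PYGL 2.81-fold ± 0.398 (SD, n = 3) in the vector group and 27.4-fold ± 0.737 in the parental group.

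**Figure D3:**
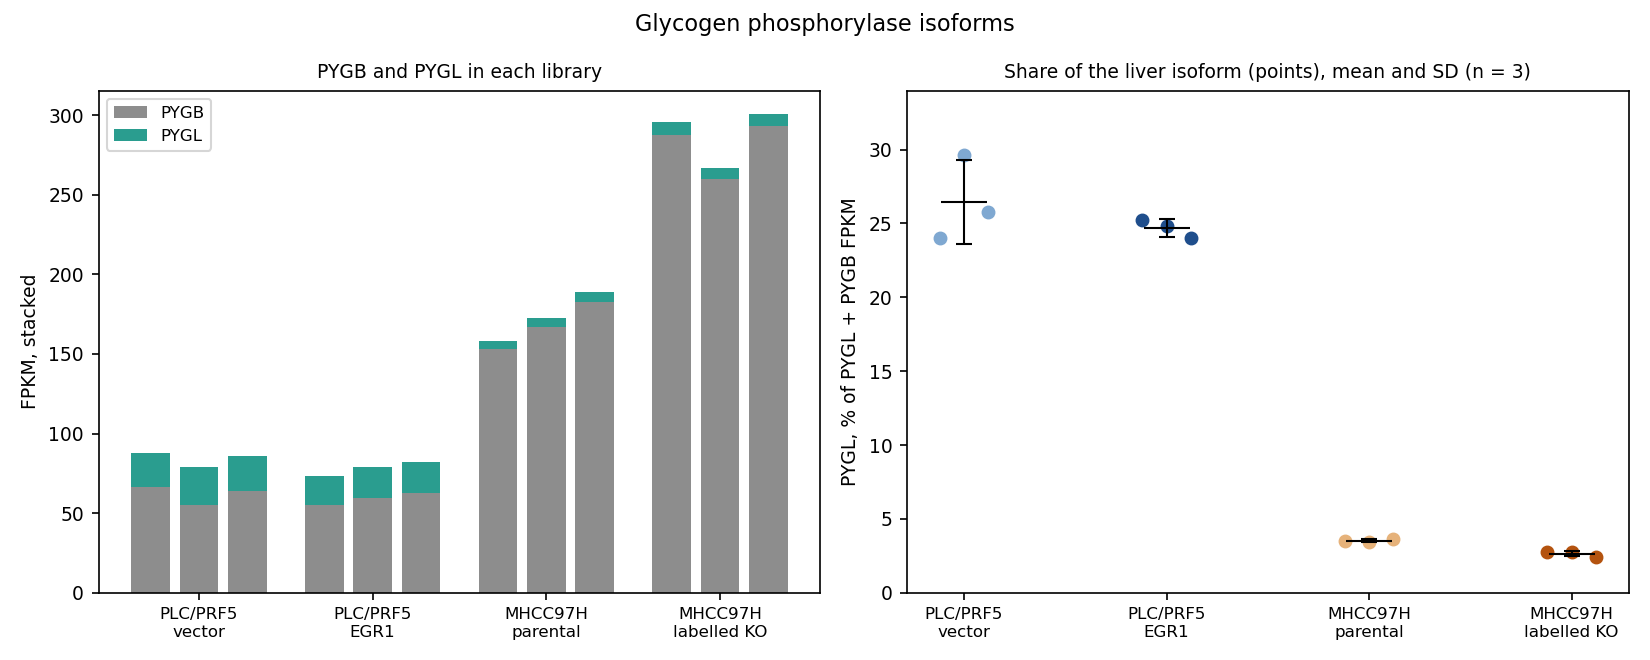
Left, FPKM of PYGB and PYGL stacked for each of the 12 libraries (y axis from 0). Right, PYGL as a percentage of PYGL plus PYGB, with points for libraries and bars for the mean and SD of each group (n = 3). The vector and EGR1 libraries lie between 24.0% and 29.6% and the MHCC97H libraries between 2.43% and 3.63%.

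Across the cell lines, 3 of the 8 tested members were higher in parental MHCC97H, PC, PYGB and GBE1, and 3 were lower, PCK2, PGM1 and PYGL. Of 12046 genes tested, 38.8% were higher and 40.9% were lower. The corrected fit gave the same member calls except for GBE1, and it called 9121 of 11214 genes in either direction. The cell line and the vector treatment cannot be told apart in this comparison. The summed level of the 10 genes was 264.6 ± 4.78 FPKM in the vector group, 237.1 ± 10.3 in the EGR1 group, 354.4 ± 13.7 in the parental group and 494.6 ± 23.3 in the labelled knockout group. PYGB alone held 23.4%, 24.8%, 47.1% and 56.6% of these sums.

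Other genes of gluconeogenesis were read from a list of 23, of which 12 passed the filter in PLC/PRF5 and 15 in MHCC97H. In the overexpression comparison 0 rose and 5 fell, and in the labelled knockout comparison 7 rose and 2 fell. Over all genes tested, 19.2% rose and 10.4% fell in the former, and 34.8% rose and 31.5% fell in the latter. The same shares apply beside the counts as deposited of the lists below, not beside the corrected counts. The corrected fits called 4046 of 10829 genes in either direction for overexpression and 4959 of 10806 for labelled knockout. Corrected shares by direction are not given here. With the correction, 1 gene of this list rose and 5 fell in the former, and 5 rose and 3 fell in the latter. Median log2 fold changes were -0.16 and 0.02 as deposited. The catalytic subunit gene G6PC was listed at 0.617 to 0.752 FPKM in the vector libraries, at 0.340 to 0.496 in the EGR1 libraries and at 0 in MHCC97H. FBP1, which encodes fructose-1,6-bisphosphatase, was listed at 0 in all PLC/PRF5 libraries, at 0.719 to 1.33 FPKM in parental MHCC97H and at 1.71 to 2.58 in the libraries labelled knockout. SLC37A4, the glucose-6-phosphate transporter, fell from 31.2 ± 1.00 FPKM with vector to 19.6 ± 1.23 with EGR1 (log2 fold change -0.65, adjusted p = 0.00123) and rose from 10.4 ± 0.792 to 15.6 ± 0.330 in the libraries labelled knockout (0.55, adjusted p = 0.000945). The second change was 0.04 after correction, with an adjusted p = 0.733. G6PC3, the broadly expressed glucose-6-phosphatase subunit, fell by 0.50 with EGR1 (adjusted p = 0.00432) and rose by 0.97 in the libraries labelled knockout (adjusted p = 6.8e-05), and both passed after correction, at -0.33 and 0.31. MPC2, a subunit of the mitochondrial pyruvate carrier, rose most in the latter comparison, from 11.1 ± 0.698 to 25.2 ± 1.32 FPKM (1.12). GOT1, the cytosolic aspartate aminotransferase, fell there from 19.2 ± 1.43 to 11.8 ± 0.984 FPKM (-0.66).

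Of 20 regulators of gluconeogenesis, 19 were tested for overexpression, where 2 rose and 2 fell, and 17 for labelled knockout, where 6 rose and 3 fell. NR3C1, the glucocorticoid receptor, had the greatest rise with EGR1 (log2 fold change 0.49, adjusted p = 0.0141), and TRIB3, a pseudokinase that binds AKT, the greatest fall (-0.37, adjusted p = 0.0116). In the libraries labelled knockout, STK11, the kinase LKB1, rose by 1.29 (adjusted p = 3.3e-05) and CREB1, a cAMP-responsive factor, fell by 0.63 (adjusted p = 0.00322). With the correction, 4 rose and 2 fell in the former and 6 rose and 3 fell in the latter. The corrected value of NR3C1 was 0.22, with an adjusted p = 0.0532, and that of TRIB3 was -0.21, which passed. Corrected values were 0.69 for STK11, which passed, and 0.21 for CREB1, which did not pass and changed direction.

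Of 11 other glycogen genes, 9 were tested for overexpression, where 2 rose and 2 fell, and 10 for labelled knockout, where 2 rose and 4 fell. With the correction these counts were 2 and 2, and 1 and 0. GAA, the lysosomal enzyme that degrades glycogen, fell by 0.61 with EGR1 (adjusted p = 0.00148) and rose by 0.64 in the libraries labelled knockout (adjusted p = 0.000981), and the first of these passed after correction, at -0.41, whereas the second did not, at 0.06. PGM2, a relative of PGM1, moved opposite to it. It rose from 13.9 ± 2.10 to 20.5 ± 0.151 FPKM with EGR1 (0.54, adjusted p = 0.00775) and fell from 11.98 ± 0.833 to 7.95 ± 1.28 FPKM in the libraries labelled knockout (-0.54, adjusted p = 0.00420), where the corrected value was -0.01.

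Of 24 regulators of glycogen metabolism, 20 were tested for overexpression, where 3 rose and 1 fell, and 21 for labelled knockout, where 6 rose and 11 fell. With the correction these counts were 1 and 3, and 4 and 4. The glycogen-targeting subunits of protein phosphatase 1 included PPP1R3C, which fell from 3.57 ± 0.394 to 1.59 ± 0.0364 FPKM with EGR1 (-0.82, adjusted p = 0.00112), and PPP1R3B, which rose from 2.22 ± 0.0953 to 3.12 ± 0.198 FPKM (0.36, adjusted p = 0.0230). In the libraries labelled knockout, AKT1, a kinase of insulin signalling, rose by 0.89 (adjusted p = 0.000316), and PRKAA2, a catalytic subunit of AMP-activated kinase, fell by 1.24 (adjusted p = 0.000231). All 4 kept their direction and passed after correction, at -0.90 for PPP1R3C, 0.33 for PPP1R3B, 0.435 for AKT1 and -0.34 for PRKAA2. Of 11 genes that use UDP-glucose or galactose, all tested, 1 rose and 0 fell with EGR1, and 3 rose and 5 fell in the libraries labelled knockout. The 1 that rose was UGDH, which oxidizes UDP-glucose to UDP-glucuronate, from 56.8 ± 3.57 to 106.9 ± 9.11 FPKM (0.90, adjusted p = 0.000455). UGDH fell from 310.5 ± 33.1 to 225.0 ± 17.0 FPKM in the libraries labelled knockout (-0.46, adjusted p = 0.00410), with a corrected value of 0.02. GALK1, galactokinase, rose by 1.19 there and UGGT2, a glucosyltransferase of glycoprotein folding, fell by 0.74. With the correction the counts were 1 and 2, and 3 and 0, UGGT2 was at -0.05 and GALK1 at 0.47.

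Lists of stress responses were also read, since GYS1, GBE1 and PGM1 are known as hypoxia-induced genes and PCK2 as a target of the stress factor ATF4. With EGR1, GYS1 and PGM1 fell, and GBE1 and PCK2 did not pass. In the libraries labelled knockout PGM1 and GYS1 rose, by 0.49 and 0.43, and GBE1 and PCK2 did not pass. Corrected values there were 0.51 for PGM1, -0.03 for GYS1, 0.37 for GBE1 and -0.32 for PCK2, and all but GYS1 passed. The part of these stress responses in the changes of the members was not tested. Of 16 hypoxia response genes, 0 rose and 9 fell with EGR1, with a median log2 fold change of -0.45. CA9, a carbonic anhydrase, fell from 41.4 ± 5.21 to 5.00 ± 1.03 FPKM (-2.83, adjusted p = 1.0e-05). ADM, adrenomedullin, fell by 0.86 with EGR1 (adjusted p = 0.00148) and rose by 0.94 in the libraries labelled knockout, while BNIP3L, a mitophagy receptor, fell by 0.53 with EGR1 and fell by 0.74 in the libraries labelled knockout. In the labelled knockout comparison 13 hypoxia genes were tested, and 3 rose and 5 fell, with a median log2 fold change of -0.19. EGLN1, an oxygen-sensing prolyl hydroxylase, fell there by 0.81. With the correction these counts were 0 and 10, and 3 and 4, and in the second comparison BNIP3L no longer passed, at -0.14, whereas ADM at 0.37 and EGLN1 at -0.44 did. Of 18 ATF4 targets, 3 rose and 7 fell with EGR1, and 8 rose and 7 fell in the libraries labelled knockout. SLC7A11, the cystine transporter, rose by 1.02 with EGR1 and fell by 0.98 in the libraries labelled knockout. Its partner SLC3A2 rose by 0.80 and 0.54, DDIT4 fell by 1.61 and rose by 0.64, and VLDLR fell by 0.52 and fell by 0.73. In the second comparison ATF5 rose by 0.72 and ASNS, asparagine synthetase, fell by 1.002. With the correction the counts were 5 and 7, and 1 and 8. In the labelled knockout comparison SLC7A11, SLC3A2, DDIT4, VLDLR and ATF5 then lay between -0.24 and 0.13 and did not pass, whereas ASNS did, at -0.97. The corrected value of SLC7A11 with EGR1 was 0.56, which passed.

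The genes most like the 3 members of widest range were searched among 12090 genes, by the root mean square difference of log2(FPKM + 1) over the 12 libraries after centring each gene. Nearest to PYGB were MYRF at 0.0705, ADAMTS15 at 0.0793 and KIF7 at 0.0976. In the vector, EGR1, parental and labelled knockout groups, ADAMTS15 had means of 0.134, 0.0769, 2.04 and 3.94 FPKM. Those of KIF7 were 0.119, 0.137, 2.295 and 4.66 FPKM. At such low levels the added 1 narrows fold changes, so the likeness of these genes to PYGB holds on log2(FPKM + 1) only. AURKA at 0.0882, PRELID1 at 0.0939 and HDAC3 at 0.0939 lay nearest to PYGL. For PC they were KLHL21 at 0.0908, FLNA at 0.111 and SFXN5 at 0.12. KLHL21, for example, had group means of 10.4 FPKM with vector, 14.8 with EGR1, 24.9 in parental cells and 39.8 in the libraries labelled knockout. PC has the same order, which follows from the search, since it picked genes by likeness over these same libraries.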

How the data were processed

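Oligo(dT)-selected RNA from 12 libraries was sequenced after treatment with duplex-specific nuclease, which depletes abundant cDNA. The authors deposited FPKM for each library. The submitters' processing notes name StringTie and hg38 without versions, and the aligner and annotation were not given in the sources used here. FPKM keep no read count, so depth and counting error are unknown. Summed FPKM were 376335 to 437652 per library, and 5407 to 6624 names were at 0. Replicates correlated at 0.9929 to 0.9973.

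FPKM were transformed to log2(FPKM + 1) and fitted with limma 3.58.1 in R 4.3.3 allowing the variance to follow the mean level, over genes averaging at least 1 FPKM, without covariates. Tests were 2-sided with Benjamini-Hochberg adjustment over all genes tested and a threshold of 0.05. Each comparison was fitted on its own 6 libraries, and the difference of effects on all 12. The fits were also run on simulated data with independent normal noise, with and without a linear GC trend. The outcome of these runs is not given here, and no conclusion is drawn from them. Of 19932 names other than assembled loci, 19458 (97.62%) matched GENCODE 29, which gave positions, transcript length and GC content. The correction removed trends on GC content and log length, as splines of 5 degrees of freedom. It removes biological change that follows them too. Isoform shares were compared by exact permutation tests. Promoters came from RefSeq (GRCh38.p14).

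The members and lists were chosen with earlier results of these data known. Named genes were all members and EGR1, list genes called in both comparisons with a log2 change of at least 0.5 in each, the greatest called rise and fall of each list in each comparison, and for 3 members the 3 genes of most like pattern. The values of 1 gene that this rule names are not reported here. Alternatives were a pseudocount of 0.1, no filter, a common total, quantile normalization, no trend, all 12 libraries in 1 fit, the replicate number as a block, the GC and length correction, a threshold of 0.01 and leaving out each library. Python 3.11.15 and matplotlib 3.10.9 made the plots.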

Additional observations from a re-analysis of the deposited data

Results flagged for a closer look

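For 5 members the effect of EGR1 overexpression in PLC/PRF5 and the effect of labelled EGR1 knockout in MHCC97H differed by the contrast of the effects over 12 libraries. The cell line and the kind of manipulation cannot be told apart in it. Of all 12090 genes tested in this contrast, 30.4% were lower and 33.4% were higher. On the log2 scale, overexpression minus labelled knockout, the difference was -1.13 for PGM1 (limma adjusted p = 1.19e-05), -0.91 for GYS1 (adjusted p = 0.000197), -0.81 for PYGB (adjusted p = 0.000252), -0.47 for PCK2 (adjusted p = 0.0349) and -0.46 for PYGL (adjusted p = 0.00547). After the GC and length correction it was -1.10 for PGM1, -0.35 for GYS1 and -0.28 for PYGB, which passed, and 0.25 for PCK2 (adjusted p = 0.190) and -0.25 for PYGL (adjusted p = 0.0784), which did not.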

How the results depend on the processing

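Over the log2 fold changes of the 8 tested members and EGR1, 542 values under alternatives changed neither sign nor call, 39 lost the call and 17 gained it with the sign kept, and 23 changed sign, some of them with a change of call. The GC and length correction changed the sign, for overexpression, of PYGB to 0.041, for labelled knockout of PCK2 to -0.32 and GYS1 to -0.026, for the cell lines of GYS1 to 0.028, and for the difference of effects of PC to 0.51, PCK2 to 0.25, UGP2 to -0.18 and GBE1 to -0.28, and the same values hold with the replicate block added. Scaling to a common total put GBE1 at -0.075 for labelled knockout and PC at 0.016 for the difference, and quantile normalization put them at -0.066 and 0.056. Leaving out 1 library gave UGP2 -0.195 to 0.044 for overexpression, with the sign change without vector library 2, and GBE1 -0.060 to 0.10 for the difference, with sign changes without vector library 1 and parental library 2. At a threshold of 0.01, 1 member was called for overexpression in place of 3. The PYGL share for labelled knockout moved to -0.299 points with the correction. The cause was not tested.

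Over all genes, the overexpression calls numbered 3457, 1468 at the threshold of 0.01 and as few as 1919 without EGR1 library 2 (2246 without vector library 3, 2208 without EGR1 library 3). The labelled knockout calls numbered 7671, 4959 with the correction and 5039 with the correction and the replicate block. The same-numbered libraries did not deviate together throughout, with correlations of -0.132, 0.136 and -0.0758 in PLC/PRF5 and 0.0317, 0.0302 and 0.467 in MHCC97H. With the replicate block, PCK2 passed for labelled knockout (adjusted p = 0.0241), and PYGL for labelled knockout (adjusted p = 0.0577) and GBE1 for the cell lines (adjusted p = 0.0506) did not. The difference for PCK2 lost its call in 7 of the 12 leave-one-out fits, without a filter (adjusted p = 0.0612) and with a common total (adjusted p = 0.0650). Unknown depth limits what can be said of genes listed at or near 0.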

Other observations

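LDHB, the lactate dehydrogenase subunit that favours making pyruvate from lactate, was in the list of other gluconeogenesis genes and was singled out after its values were seen. Its group means were 0.138 FPKM with vector, 0.356 with EGR1, 629.7 in parental MHCC97H and 609.9 in the libraries labelled knockout.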
